A study of Mus musculus with 6 samples.

Results

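Smooth muscle and pericyte genes were described in HFSCs (hair follicle stem cells) sorted from mouse skin. They are 10 of the 56941 genes in the count table, chosen by name as genes of the arrector pili muscle, vascular smooth muscle, dermal sheath and pericytes. They are Acta2, Actg2, Lmod1, Tagln, Cnn1, Myh11, Mylk, Rgs5, Pdgfrb and Kcnj8. Total RNA was sequenced from CD34+/α6-integrin+ HFSCs of dorsal skin of female mice at PD68 (postnatal day 68), a time at which both genotypes were in telogen, the resting phase of the hair cycle. The strain was B6;129S4-Dab2tm1Cpr/J, and 3 libraries per genotype were labelled as biological replicates. Mice of both groups carried floxed Dab2 alleles on both chromosomes and were injected with tamoxifen at 75 mg/kg on 5 days. What set the Dab2-cKO mice apart was K14CreER, a tamoxifen-inducible Cre recombinase that is made in K14-expressing basal epithelial cells, whereas the WT mice had no Cre.

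Smooth muscle contracts when myosin light chain kinase phosphorylates the regulatory light chain of smooth muscle myosin, which then slides along filaments of smooth muscle actin. The actin-binding proteins calponin and transgelin and the actin nucleator leiomodin belong to the same apparatus. Pericytes are contractile cells on the outside of capillaries that are recruited by PDGF-B acting on the receptor PDGFRβ. In skin these cells sit in vessel walls, in the sheath around the follicle and in the arrector pili muscle, which is anchored to the bulge, where HFSCs reside. None of the 10 genes is known as a marker of HFSCs, and the K14 promoter is not known to be active in smooth muscle cells or pericytes.

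Many smooth muscle genes are switched on by the factor SRF, which binds the CArG box (2 C, 6 bases of A or T, 2 G). Promoter sequences of RefSeq were searched on both strands for this box, and for a CArG-like box in which 1 of the 6 inner bases may be G or C. Of the 10 genes, 6 were in the sequence table, namely Acta2, Cnn1, Mylk, Lmod1, Rgs5 and Kcnj8. Tagln, Myh11, Actg2 and Pdgfrb are named only. The windows of Acta2, the gene with the highest level, and Rgs5, the gene with the largest rise, are shown because they differ in this feature. Each runs 5′ to 3′ over the 250 bases before the start of the transcript annotated by RefSeq, with CArG-like boxes in capitals, on GRCm38.p6 at chr19:34255374-34255623 (minus strand) and chr1:169655251-169655500 (plus strand).
Acta2: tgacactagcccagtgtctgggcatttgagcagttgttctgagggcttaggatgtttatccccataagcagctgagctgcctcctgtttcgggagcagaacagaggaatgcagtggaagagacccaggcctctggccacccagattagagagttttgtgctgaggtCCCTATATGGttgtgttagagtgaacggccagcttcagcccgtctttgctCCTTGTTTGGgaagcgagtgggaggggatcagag
Rgs5: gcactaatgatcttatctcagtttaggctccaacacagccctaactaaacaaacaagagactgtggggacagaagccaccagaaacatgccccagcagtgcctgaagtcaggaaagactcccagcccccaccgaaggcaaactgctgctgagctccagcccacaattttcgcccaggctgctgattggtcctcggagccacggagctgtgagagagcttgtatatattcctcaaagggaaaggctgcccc
The Acta2 window held 2 CArG-like boxes, CCCTATATGG beginning 84 bases before the start and CCTTGTTTGG beginning 34 bases before it, and 0 boxes of the strict form. The windows of Rgs5, Cnn1, Mylk, Lmod1 and Kcnj8 held 0 of either form. Among all 32851 windows, 1.47% held a strict box and 8.59% a CArG-like box. These matches describe letters in a window and are not evidence of binding.

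The libraries held between 7040032 and 11696457 counts, so that a count of 0 would allow a share of at most 4.26e-05% (3 counts, counting error only). The targeted gene Dab2 had 304, 368 and 362 counts in the libraries labelled WT and 1504, 1130 and 1259 in those labelled Dab2-cKO, a log2 fold change of 2.08 (SE 0.08, edgeR's adjusted p = 3.04e-34). Since Dab2 was higher where its deletion was labelled, every direction here is that of the libraries labelled Dab2-cKO against those labelled WT. These labels rest on an assignment of count columns, described below, that was not tested. Markers of keratinocytes and of the bulge were present in both groups, with Krt14 at 3403 and 6122 normalized counts per kb of exon in WT and Dab2-cKO. Of 8 such markers, 5 were higher and 3, Sox9, Lhx2 and Lgr5, were lower in Dab2-cKO. Col1a1, a fibroblast marker, stood above Krt14 in both groups, at 7018 and 20700 normalized counts per kb. Libraries of the 2 groups also differed in composition. The share of mitochondrial genes was 13.0% to 14.4% in WT and 19.1% to 20.3% in Dab2-cKO, and the scaling factors of edgeR's TMM method were 1.11 to 1.21 and 0.847 to 0.876. Of 32149 genes tested, 28.2% were called at an adjusted p under 0.05, 16.8% higher and 11.5% lower in Dab2-cKO.

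Nearly all of the smooth muscle and pericyte genes were higher in the libraries labelled Dab2-cKO. Of the 10 genes, 9 were called higher, against 16.8% of all genes tested, and 0 were called lower, against 11.5% of all genes tested. The same 9 had all 3 Dab2-cKO libraries above all 3 WT libraries, a pattern seen in 20.6% of all genes tested. Their rises ran from 1.57-fold for Acta2 to 3.80-fold for Rgs5, and Tagln was the gene that did not pass. The median log2 fold change of the 10 genes was 1.16, against -0.02 over all genes tested, and 7 of the 10 had a log2 fold change above 1, against 6.84% of all genes. Scaled by library size alone, these medians were 0.74 and -0.45, and Mylk (0.61), Actg2 (0.69) and Lmod1 (0.79) lay under 1. With upper-quartile scaling they were 1.02 and -0.17, and Mylk (0.89) and Actg2 (0.97) lay under 1. Together the 10 genes took a share of 0.0394% to 0.0400% of each WT library and 0.0737% to 0.0763% of each Dab2-cKO library. In such bulk samples, a larger number of cells of a type and more RNA per cell cannot be told apart.

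**Figure D1:**
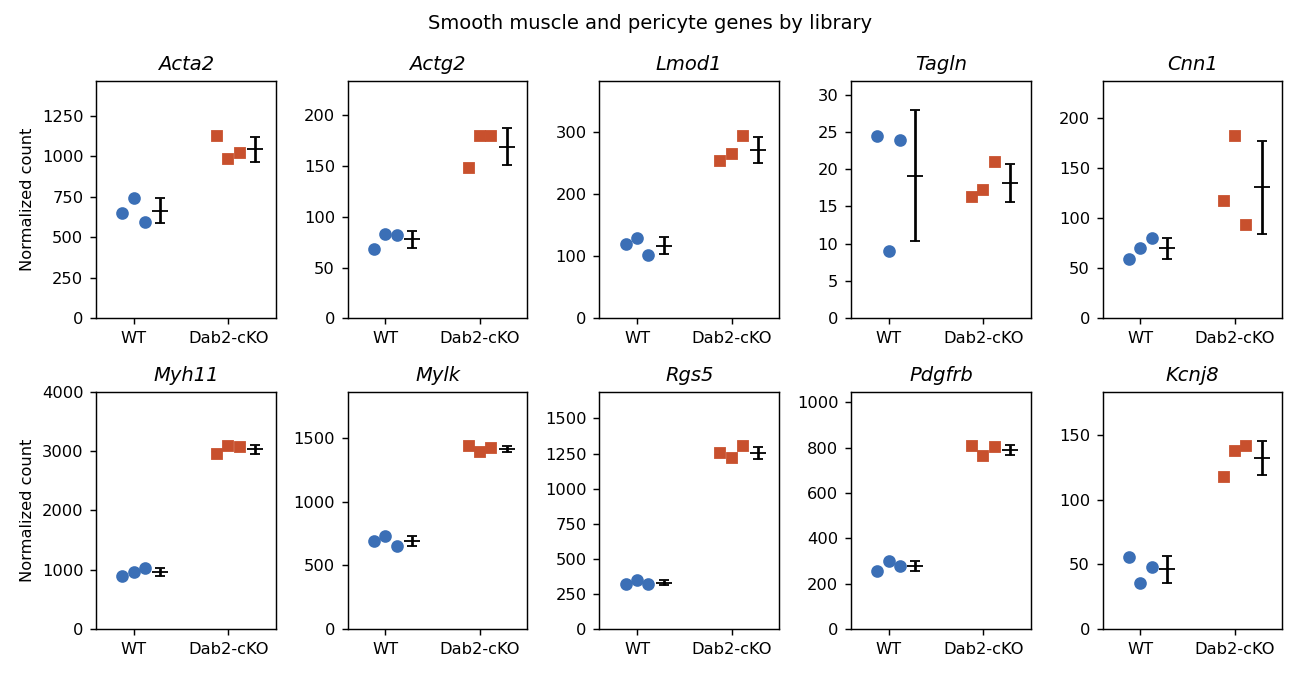
Normalized counts (linear axes starting at 0) of the 10 genes in each library, with WT as blue circles and Dab2-cKO as orange squares, and the mean ± SD of 3 libraries in black. In every panel but that of Tagln, the 3 Dab2-cKO libraries lie above the 3 WT libraries.

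Acta2 and Actg2 encode the smooth muscle forms of actin, and Lmod1 the leiomodin that starts their filaments. Acta2 (ENSMUSG00000035783, GRCm39 chr19:34217737-34232990) had 652, 746 and 595 normalized counts in WT replicates 1 to 3. In the Dab2-cKO replicates it had 1128, 984 and 1020. The groups did not overlap, and replicate 1 was the highest of Dab2-cKO and replicate 2 of WT. The mean rose from 664 ± 76.2 to 1044 ± 75.1 (SD, n = 3 each), a log2 fold change of 0.65 (95% confidence interval 0.49 to 0.81, edgeR's adjusted p = 1.37e-10). This was the smallest rise of the 9, and it no longer passed when tested against a change of 1.5-fold (edgeR's adjusted p = 0.431). Scaled by library size alone its log2 fold change was 0.23 (edgeR's adjusted p = 0.00381), still called.

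Actg2, the actin of visceral smooth muscle (ENSMUSG00000059430, chr6:83489887-83513551), had 67.9, 83.1 and 82.0 normalized counts in WT and 148, 179 and 180 in Dab2-cKO. The lowest Dab2-cKO library was thus well above the highest WT library. Its log2 fold change was 1.11 (95% confidence interval 0.79 to 1.43, edgeR's adjusted p = 1.91e-08). Lmod1 (ENSMUSG00000048096, chr1:135252509-135295907) had 119, 130 and 103 normalized counts in WT and 255, 265 and 295 in Dab2-cKO, again without overlap. Its log2 fold change was 1.21 (95% confidence interval 0.95 to 1.47, edgeR's adjusted p = 1.97e-12).

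Myh11 encodes the smooth muscle myosin heavy chain, the motor protein, and Mylk the light chain kinase that turns it on. Myh11 (ENSMUSG00000018830, chr16:14012399-14109236) had 890, 967 and 1025 normalized counts in the WT libraries. The Dab2-cKO libraries had 2946, 3080 and 3074. The 3 libraries of each group were close together and the groups lay far apart. Myh11 rose from 961 ± 68.1 to 3033 ± 75.9 (SD, n = 3 each), a log2 fold change of 1.66 (95% confidence interval 1.51 to 1.80, edgeR's adjusted p = 3.34e-31). The intervals of Myh11 and Acta2 did not overlap. Mylk (ENSMUSG00000022836, chr16:34565580-34822790) had 687, 733 and 649 normalized counts in WT and 1433, 1389 and 1423 in Dab2-cKO. Its rise was 2.05-fold, with a log2 fold change of 1.04 (95% confidence interval 0.89 to 1.18, edgeR's adjusted p = 4.96e-20). Mylk also encodes longer non-muscle forms of the kinase, and counts per gene do not separate the forms.

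Tagln and Cnn1 encode transgelin and calponin, which bind actin filaments in smooth muscle. They were the least certain of the 10. Cnn1 (ENSMUSG00000001349, chr9:22010512-22020926) had 59.0, 69.5 and 80.3 normalized counts in WT and 116, 182 and 92.7 in Dab2-cKO. Replicate 2 was the highest Dab2-cKO library, and replicate 3 was only slightly above the highest WT library. The mean rose from 69.6 ± 10.7 to 130 ± 46.2 (SD, n = 3 each), a log2 fold change of 0.89 (95% confidence interval 0.51 to 1.26, edgeR's adjusted p = 8.99e-05). Without Dab2-cKO replicate 2 the log2 fold change was 0.56 (edgeR's adjusted p = 0.0369), and the test against a change of 1.5-fold was not passed (edgeR's adjusted p = 0.134).

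Tagln (ENSMUSG00000032085, chr9:45840909-45847404), an abundant transcript of smooth muscle, was near background. It had 22, 10 and 28 counts in WT and 17, 15 and 19 in Dab2-cKO. The groups overlapped, and the normalized means were 19.1 ± 8.77 and 18.1 ± 2.50 (SD, n = 3 each). The log2 fold change was -0.07 (95% confidence interval -0.90 to 0.76, edgeR's adjusted p = 0.935), an interval that holds both falls and rises. Without WT replicate 1 the log2 fold change was 0.13 and without WT replicate 3 it was 0.15, and neither passed. For every 100 counts of Acta2 a library held 1.21 to 4.02 counts of Tagln.

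A property of the annotation sets Tagln apart. Of its exon bases, 66.7% are overlapped by exons of Pcsk7 and Gm48529 on the opposite strand, and the strand setting used for counting was not given in the sources used here. The next highest share was 35.1% for Cnn1, which Elof1 overlaps, followed by 9.33% for Acta2 and 6.85% for Mylk, and the other 6 genes had 0%. Among genes of the lists below, Ndufa4l2 with an overlap of 63.3% rose from 70.6 to 214 normalized counts. Tnnc2, a troponin of fast skeletal muscle with an overlap of 68.7% that was picked out after its values were seen, had 11.5 and 14.2, whereas its partner Tnni2 had 1492 and 8629. The part of the overlap in the level of Tagln was not tested.

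Rgs5, Pdgfrb and Kcnj8 mark pericytes. Rgs5, which shortens signalling through G proteins, showed the largest rise of the 10. Rgs5 (ENSMUSG00000026678, chr1:169483036-169524887) had 322, 348 and 320 normalized counts in WT and 1252, 1216 and 1300 in Dab2-cKO. Its mean went from 330 ± 15.3 to 1256 ± 42.1 (SD, n = 3 each), with a log2 fold change of 1.93 (95% confidence interval 1.77 to 2.09, edgeR's adjusted p = 1.96e-32). The spread within a group was small beside the distance between the groups.

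Pdgfrb (ENSMUSG00000024620, chromosome 18), the receptor for PDGF-B, had 254, 298 and 278 normalized counts in WT and 806, 764 and 802 in Dab2-cKO. Its log2 fold change was 1.51 (95% confidence interval 1.34 to 1.69, edgeR's adjusted p = 2.47e-24). Fibroblasts also express this receptor, so it marks pericytes less strictly than the other two. Kcnj8 (ENSMUSG00000030247, chr6:142510563-142517830) encodes the pore of an ATP-sensitive potassium channel. It had 55.7, 35.2 and 47.8 normalized counts in WT and 117, 138 and 141 in Dab2-cKO, with no overlap. Its log2 fold change was 1.52 (95% confidence interval 1.14 to 1.91, edgeR's adjusted p = 5.51e-10). Abcc9, which encodes the partner subunit of this channel, rose as well, with a log2 fold change of 1.45 (SE 0.09, edgeR's adjusted p = 3.32e-22).

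**Figure D2:**
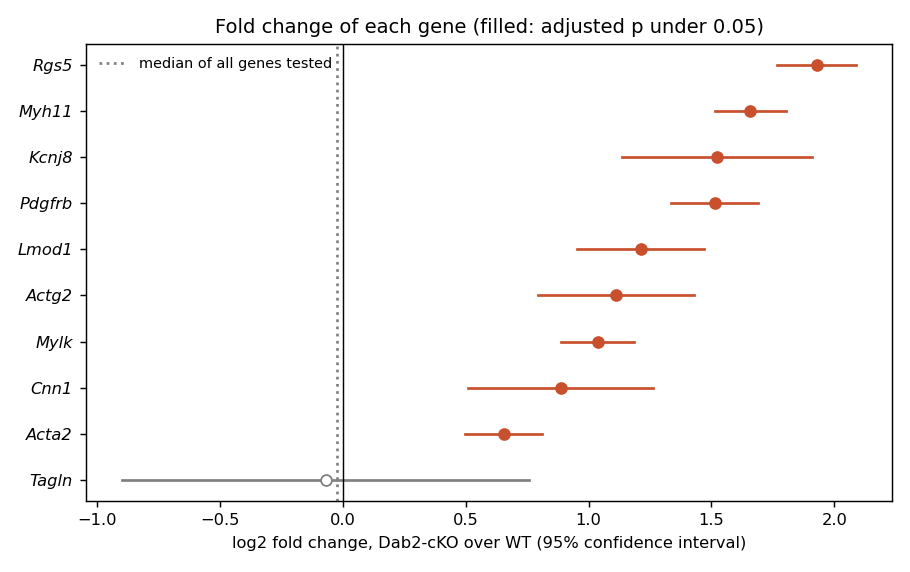
Log2 fold change (Dab2-cKO over WT, x axis) for each of the 10 genes with its 95% confidence interval, filled where edgeR's adjusted p is under 0.05. Points run from -0.07 for Tagln to 1.93 for Rgs5, and the dotted line marks the median of all genes tested at -0.02.

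Levels of different genes were compared per kb of exon. As a background, 1526 genes of olfactory, vomeronasal and trace amine receptors, which skin is not known to express, had a median of 4.94 normalized counts per kb and a 95th percentile of 11.8. Over the 6 libraries, the mean of 9 of the 10 genes lay above that percentile. Acta2 and Myh11 were highest, at 22.4 and 22.2 times the percentile, followed by Rgs5 at 10.9, Mylk at 7.90 and Pdgfrb at 5.57 times. Actg2, Lmod1, Cnn1 and Kcnj8 were between 4.71 and 2.00 times the percentile, and Tagln was at 0.771 times.

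The order of the genes differed between the groups. In WT, Acta2 was first with 184 to 231 normalized counts per kb, and Myh11 was second with 117 to 135. In Dab2-cKO, Myh11 had 388 to 405 and Acta2 305 to 350, so that the 2 genes changed places without overlap in either group. Mylk (57.7 to 65.1) stood above Rgs5 (52.1 to 56.5) in WT by a small distance, and Rgs5 (198 to 211) stood above Mylk (123 to 127) in Dab2-cKO. Lower in the order, several neighbours overlapped. In WT these were Actg2 with Pdgfrb, Pdgfrb with Lmod1, Lmod1 with Cnn1, and Kcnj8 with Tagln, and in Dab2-cKO Actg2 with Lmod1, Lmod1 with Cnn1, and Cnn1 with Kcnj8. Kcnj8 in WT was at 9.34 to 14.8 normalized counts per kb, on both sides of the background percentile, and in Dab2-cKO at 31.1 to 37.5.

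**Figure D3:**
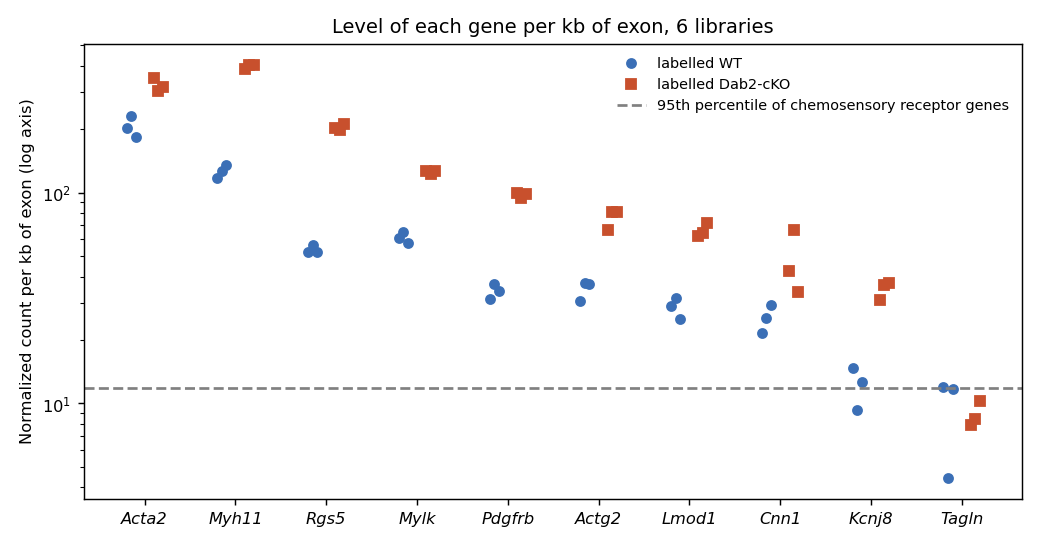
Normalized counts per kb of exon (log axis) of the 10 genes in each of the 6 libraries, with WT as blue circles and Dab2-cKO as orange squares, and the 95th percentile of receptor genes (11.8) as a dashed line. Acta2 leads in WT and Myh11 in Dab2-cKO, and Tagln lies around or under the line.

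The unequal rises also showed as ratios of raw counts within a library, which do not depend on scaling between libraries. They are given without a test, since an exact 2-sided permutation test of 3 against 3 cannot go below p = 0.1. For every 100 counts of Myh11 there were 69.5 ± 10.1 of Acta2 in WT and 34.5 ± 3.37 among the Dab2-cKO libraries (SD, n = 3 each). Mylk was likewise lower beside Myh11, at 72.1 ± 7.65 in WT and 46.7 ± 1.82 among Dab2-cKO libraries. Rgs5 beside Myh11 went the other way, with 34.5 ± 2.78 and 41.4 ± 1.69. Within the pericyte genes, Pdgfrb had 83.8 ± 4.24 counts per 100 of Rgs5 in WT and 63.0 ± 1.33 in Dab2-cKO. The groups did not overlap in these 4 ratios, whereas they did for Kcnj8 per 100 counts of Rgs5, at 14.1 ± 3.65 and 10.5 ± 1.03.

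By the likeness rule, the 5 genes nearest to Acta2, the gene with the highest mean level per kb, were Khnyn, Acsl4, Phf24, Ggcx and Spr. Their distances over the 6 libraries, between log2 normalized counts centred on each gene's mean, were 0.130 to 0.142 among 10849 genes compared. Tagln, Kcnj8 and Cnn1 averaged fewer than 100 normalized counts and were not compared.

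Of 20 other smooth muscle genes, 13 were called higher, 2 lower, and 5 were not called, with a median log2 fold change of 1.21. The largest rises were those of Des, the filament protein desmin (log2 fold change 2.47, edgeR's adjusted p = 2.05e-40), Pdlim3 (2.27) and the tropomyosin Tpm2 (2.11). Skeletal muscle also expresses these 3, as it does Tpm1, Synm, Synpo2, Nexn and Hspb6, which rose by 1.25, 1.70, 1.91, 1.77 and 2.07 on the log2 scale. Tpm2, Tpm1 and Des had the highest levels per kb of the list. Myl9, the regulatory light chain of smooth muscle myosin, rose from 175 to 384 normalized counts (log2 fold change 1.13), and Ppp1r14a, an inhibitor of myosin phosphatase, from 87.1 to 318 (1.88). Smtn, which encodes smoothelin, and Csrp1 were lower, with log2 fold changes of -0.39 and -0.23 (edgeR's adjusted p = 6.41e-05 and 0.0252), the latter not called by DESeq2 (adjusted p = 0.09996). The groups overlapped for Csrp1. It was also not called without WT replicate 2 or 3 or Dab2-cKO replicate 3 (edgeR's adjusted p = 0.101, 0.204 and 0.223). Cald1, which encodes caldesmon and was at 2122 and 2018 normalized counts, and Kcnmb1, at 47.0 and 59.9, were not called, and neither were Pln, Pdlim7 and Casq2. Cald1 was called lower with upper-quartile scaling (log2 fold change -0.21), library size alone (-0.50) and a minimum mean count of 50 (-0.16).

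Of 20 other pericyte genes, 12 were called higher, 3 lower, and 5 were not called, with a median log2 fold change of 0.54. Gucy1a1, a subunit of the nitric oxide receptor, rose by 1.67 on the log2 scale and Art3 by 1.61. In WT, Gucy1a1 was under the background percentile, at 7.63 normalized counts per kb, and in Dab2-cKO it was at 24.4. Mcam rose by 1.18 and Notch3, the Notch receptor of mural cells, by 0.28 (edgeR's adjusted p = 0.00312). Heyl, a target of Notch signalling, was lower with a log2 fold change of -1.71 (310 and 94.5 normalized counts, edgeR's adjusted p = 8.58e-19). S1pr3 and Cspg4, which encodes the NG2 proteoglycan, were lower as well, at -0.90 and -0.62. Higd1b, at 5.96 and 7.15 normalized counts per kb, was under the background percentile and was not called, and Cox4i2, Steap4, Ednra and Tbx18 were not called either. When scaled by library size alone, the list had 8 genes higher and 5 lower, a median of 0.12, and Notch3 at -0.14 without a call. Notch3 was also not called with upper-quartile scaling (log2 fold change 0.14, edgeR's adjusted p = 0.111).

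Among 7 regulators of smooth muscle transcription, 4 were higher and 0 lower, and the factors that bind or partner at the CArG box were mostly not called. Srf was at 312 normalized counts in both groups (log2 fold change -0.003, SE 0.11), Myocd, which encodes the co-activator myocardin, at 80.6 and 102 (0.33, SE 0.18), and Mrtfa at 333 and 295 (-0.18, SE 0.11). Mrtfb rose by 0.39 (edgeR's adjusted p = 5.19e-05), Gata6 by 0.84, Klf4 by 0.96 and Mef2c by 1.78 (edgeR's adjusted p = 4.08e-31). Gata6, at 5.60 and 9.99 normalized counts per kb in WT and Dab2-cKO, was under the background percentile. Myocd, at 11.3 and 14.3, was under it in WT only. Klf4 is also known in epidermis and Mef2c in skeletal muscle and endothelium. With library size alone as scaling, Mef2c and Klf4 stayed higher, Srf and Mrtfa were called lower (log2 fold changes -0.43 and -0.60), and Mrtfb and Gata6 were not called. Mrtfa was also called lower with upper-quartile scaling (-0.32) and a minimum mean count of 50 (-0.26).

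The PDGF ligands moved unequally. Pdgfb, the ligand of Pdgfrb in vessel walls that endothelial cells make, rose from 94.3 to 177 normalized counts (log2 fold change 0.91, edgeR's adjusted p = 5.65e-07). Pdgfc rose by 1.58 and Pdgfd by 1.02, and Pdgfra, the receptor typical of fibroblasts, rose 3.02-fold (edgeR's adjusted p = 1.74e-29). Pdgfd, at 5.53 and 11.1 normalized counts per kb in WT and Dab2-cKO, was under the background percentile. Pdgfc, at 6.09 and 18.2, was under it in WT only. Pdgfa, which epithelium makes, was lower at a log2 fold change of -0.34 (edgeR's adjusted p = 0.0426), not called by DESeq2 (adjusted p = 0.115). It was also not called with the replicate block (edgeR's adjusted p = 0.0575) or in the test against a 1.5-fold change. Nor was Pdgfa called without WT replicate 2 or 3, or without any single Dab2-cKO replicate (edgeR's adjusted p = 0.0559 to 0.185). Nephronectin, deposited by bulge cells, and the integrin α8β1 on arrector pili cells are known to hold this muscle to the bulge. Npnt had a log2 fold change of 0.43 (SE 0.11, edgeR's adjusted p = 0.00153), which was 0.002 and not called with library size alone. Itga8, the α8 chain, was at 159 and 198 normalized counts and missed the threshold (log2 fold change 0.32, SE 0.13, edgeR's adjusted p = 0.0612). Itgb1, the β1 chain that most cells express, rose by 0.83.

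Related proteins of other cells gave a comparison for each part of the contractile apparatus. Of 10 non-muscle counterparts, 3 were higher, 1 lower, and 6 were not called, with a median log2 fold change of -0.01. Actb and Actg1, the highest of them per kb, and Myh9 were not called (log2 fold changes 0.12, -0.14 and -0.15). Several alternatives called Actg1 and Myh9 lower, among them upper-quartile scaling (-0.29 for both), each change of the low-count filter and leaving out WT replicate 1, and Myh9 also without Dab2-cKO replicate 2 (-0.19). Actb was called higher without WT replicate 2 (0.19) and lower with library size alone (-0.31). Cnn2 rose by 0.63, Myl12a by 0.54 and Myl6 by 0.23, and Tagln2 was lower at -0.31. Under library size alone, 0 were higher and 7 lower, with a median of -0.44 beside -0.45 for all genes, and Myl6 turned to -0.20. Per 100 counts of Actb and Actg1 together, Acta2 had 4.07 ± 0.380 counts in WT and 6.08 ± 0.481 in Dab2-cKO, and Actg2 0.475 ± 0.0282 and 0.984 ± 0.0999 (SD, n = 3 each), without overlap.

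Of 10 counterparts from striated muscle or other tissues, 7 were higher, 1 lower, and 2 were not called, with a median log2 fold change of 1.49. Acta1, the actin of skeletal muscle, rose by 2.65 (edgeR's adjusted p = 1.40e-43), from 39.3 ± 0.701 to 235 ± 5.52 counts per 100 of Actb and Actg1 (SD, n = 3 each). Lmod2 rose by 2.38, Mylk2 by 2.10, Lmod3 by 2.05 and Mylk4 by 1.48. Each of these is the striated muscle relative of one of the 10 genes. Other relatives did not share this, since Mylk3, the kinase of heart muscle, was at 65.8 and 64.7 normalized counts and Abcc8, a relative of Abcc9, at 159 and 133, neither of them called. Abcc8 was called lower with upper-quartile scaling (log2 fold change -0.39), library size alone (-0.68) and a minimum mean count of 50 (-0.33). Kcnj11, a relative of Kcnj8, had a log2 fold change of 1.50, beside 1.52 for Kcnj8. In WT, Kcnj11 was under the background percentile, at 7.43 normalized counts per kb, and in Dab2-cKO it was at 21.1. Tagln3, known from neurons, was lower at -1.29.

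**Figure D4:**
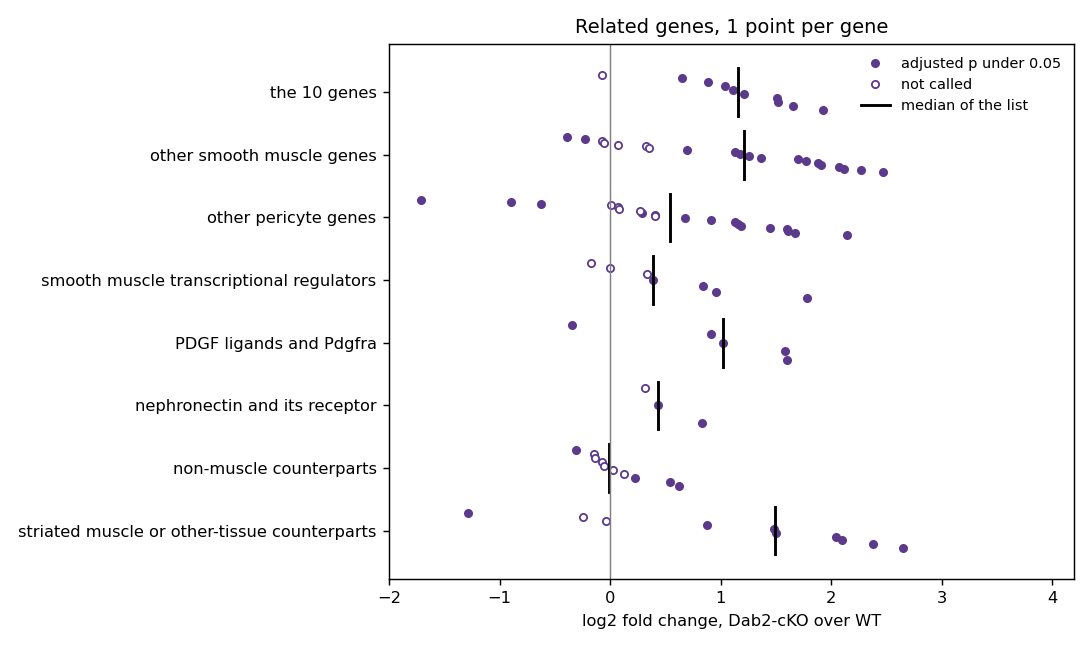
Log2 fold change (Dab2-cKO over WT, x axis) for each of the 10 genes and of the related lists, 1 point per gene, filled where edgeR's adjusted p is under 0.05, with the median of each list as a black bar. Medians are 1.16 for the 10 genes, 1.21 for other smooth muscle genes, 0.54 for other pericyte genes, -0.01 for non-muscle counterparts and 1.49 for striated muscle or other-tissue counterparts.

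Markers of other cell types were higher together with the 10 genes. The summed normalized count of the 10 genes was 3131 to 3418 in WT and 8214 to 8348 in Dab2-cKO, a ratio of means of 2.54. All 12 of 12 endothelial markers were higher, their sum going from 2220 to 2504 in WT to 8230 to 8410 in Dab2-cKO, a ratio of 3.48, with Plvap leading (log2 fold change 2.48). All 10 of 10 fibroblast markers were higher, with sums of 105940 to 128163 and 369804 to 389748, a ratio of 3.24. Skeletal muscle markers rose in 12 of 13, with Tnnc2 not called, and had sums of 59178 to 68900 and 276288 to 279511, a ratio of 4.36.

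Immune markers rose in 8 of 10, all but Trdc and Cd3e, with sums of 1825 to 1998 and 7904 to 8054, a ratio of 4.18. Schwann cell markers rose in 5 of 6, with Sox10 not called and Mag not called by DESeq2 (adjusted p = 0.0549), nor with upper-quartile scaling, with library size alone or without WT replicate 1 or Dab2-cKO replicate 1. Mag was under the background percentile in both groups, at 4.98 and 9.13 normalized counts per kb. The sum of the Schwann cell markers was 664 to 727 in WT and 1691 to 1895 in Dab2-cKO, a ratio of 2.56. Erythrocyte markers rose in 5 of 5, with sums of 244 to 274 and 1467 to 1601, a ratio of 5.85. Dermal papilla markers did not share this pattern. Of 6, Hhip, Corin and Alx4 were lower, Crabp1 was higher, and their sum was 743 to 811 in WT and 524 to 580 in Dab2-cKO. Keratinocyte and bulge markers rose in 5 of 8, with a sum of 18659 to 21376 in WT and 31938 to 32869 in Dab2-cKO, a ratio of 1.61. Within that list Sox9, Lhx2 and Lgr5 were lower (log2 fold changes -1.45, -1.43 and -1.32), while Cd34, which vessels also express, rose by 1.80. No marker of these lists was at 0 in any library. The part of these markers in the rise of the smooth muscle and pericyte genes was not tested.

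**Figure D5:**
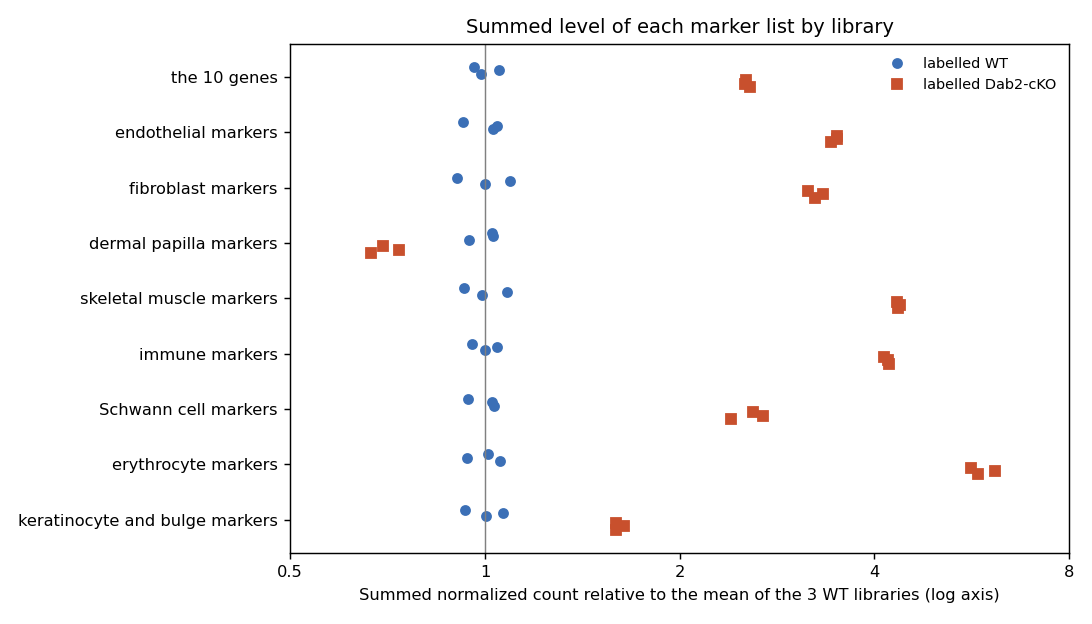
Summed normalized count of the 10 genes and of each marker list in every library, divided by the mean of the 3 WT libraries of that list (log axis), with WT as blue circles and Dab2-cKO as orange squares. The ratio of means is 2.54 for the 10 genes, 3.48 for endothelial, 4.36 for skeletal muscle and 1.61 for keratinocyte and bulge markers, and dermal papilla markers lie under 1 in Dab2-cKO.

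Within a library, the 10 genes were set against these lists as a ratio of counts. For every 100 counts of endothelial markers the 10 genes had 136 ± 5.76 counts in WT and 99.0 ± 2.12 across Dab2-cKO libraries (SD, n = 3 each). The same measure was 170 ± 2.40 and 103 ± 0.896 per 100 counts of immune markers, 5.11 ± 0.167 and 2.98 ± 0.0391 per 100 of skeletal muscle markers, and 2.78 ± 0.151 and 2.18 ± 0.0619 per 100 of fibroblast markers. Beside keratinocyte and bulge markers it was higher in Dab2-cKO, at 16.2 ± 0.475 and 25.6 ± 0.567. The groups did not overlap in any of these 5 ratios.

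Single genes differed in how they stood to the endothelial markers. Per 100 endothelial counts, Rgs5 had 13.8 ± 0.773 counts in WT and 15.1 ± 0.679 in Dab2-cKO, and Kcnj8 1.95 ± 0.551 and 1.59 ± 0.167 (SD, n = 3 each), with overlap between the groups for both. Myh11 was at 40.0 ± 1.43 and 36.4 ± 1.16 and Pdgfrb at 11.5 ± 0.341 and 9.48 ± 0.348, both lower in Dab2-cKO without overlap. Acta2 was at 27.7 ± 3.20 and 12.5 ± 0.876, also without overlap. The ratio of the Dab2-cKO mean to the WT mean was 0.269 for Tagln with its few counts, 0.451 for Acta2, between 0.538 and 0.664 for Cnn1, Mylk, Actg2 and Lmod1, and between 0.813 and 1.09 for Kcnj8, Pdgfrb, Myh11 and Rgs5.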

How the data were processed

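The authors trimmed the reads with fastp 0.23.4, aligned them to GRCm39 with HISAT2 2.2.1 and assigned them to genes with featureCounts 2.0.6. The table they deposited holds raw counts. Strand setting and annotation release were not given in the sources used here. Columns named FL-FL were taken as Dab2-cKO, following the title of the series, and the other columns were named WT. Mice of both groups carried floxed Dab2 alleles, so the name FL-FL does not by itself tell the genotypes apart. Every direction given here rests on this assignment and would be reversed under the opposite one. A second deposited table holds the authors' own fold changes and p-values from DESeq2 1.42.0 and was not used.

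Counts were filtered (filterByExpr), scaled by TMM and compared by the quasi-likelihood test of edgeR 4.0.16 with robust dispersions in R 4.3.3, with Benjamini-Hochberg adjustment over 32149 genes. Normalized counts were scaled to the mean effective library size. Exon lengths and overlaps came from GENCODE for GRCm39, which held 56323 of the 56941 identifiers. Confidence intervals used the moderated degrees of freedom. The procedure was tested on simulated data with few changed genes and no planned shift in composition, unlike these libraries. Groups came from the sample labels, and p-values set the difference between genotypes against the spread between 3 libraries per genotype, moderated across genes.

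Named were all 10 genes, Dab2, the whole regulator, PDGF and nephronectin lists, and of other lists the called genes with the 3 largest rises and falls and the 3 highest levels. A few further list genes were named after their values were seen. Some list genes and 1 list are not reported here. For likeness to the gene with the highest level per kb, the 5 nearest genes were named, among those averaging 100 normalized counts or more. The 10 genes and the 16 lists (150 genes) were chosen with earlier results of these data known, and the CArG-like form was added after the strict form had been searched. Alternatives were DESeq2, upper-quartile scaling, library size alone, TMM without mitochondrial and the 100 most abundant genes, no filter, a minimum mean count of 50, a block for the replicate number, a test against a 1.5-fold change, and each library left out.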

Additional observations from a re-analysis of the deposited data

How the results depend on the processing

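Of the 10 genes, 9 were called under DESeq2, each scaling, each filter and the replicate block, and in each run without 1 library, and 7 in the test against a 1.5-fold change, which Acta2 and Cnn1 did not pass. Over all genes, 9069 were called, 13854 with library size alone (2686 higher, 11168 lower) and 3358 against a 1.5-fold change, and upper-quartile scaling gave 4281 higher and 5561 lower. These scalings moved the median log2 fold change of all genes from -0.02 to -0.45 and -0.17. Without 1 library each, calls over all genes ranged from 7996 to 8546 and over the related lists, with 121 in the full data, from 116 to 121. The log2 fold change of Tagln ranged from -0.407 to 0.150 without 1 library each, reversing to 0.133 without WT replicate 1 and to 0.150 without WT replicate 3 and passing in no run, and at a mean count of at least 50 it gave no value. The cause of these changes was not tested.

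Same-numbered libraries did not deviate together (correlations 0.023, 0.012 and 0.008), so the numbers were not taken as a pairing. With the replicate block, 8967 genes, 9 of the 10 and 119 list genes were called. Tagln had 10 to 28 counts per library, and with this depth its 95% interval reached from -0.90 to 0.76 on the log2 scale.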
